A study of Homo sapiens with 30 samples.

Results

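The 3′-most exon bin of a gene is the last stretch of annotated exon in the direction of transcription, and the share of a gene's exon counts that falls in it was used here as a readout of 3′ end use. An exon bin is a piece of exon cut wherever the exons of a gene's annotated transcripts start or end, so that each bin belongs to a fixed set of transcripts. In every gene with 3 or more bins, the bin with the largest end coordinate (+ strand) or the smallest start coordinate (− strand) was taken, without reference to any count. This gave 29191 members among 652720 bins, 1 for each of the 29191 genes with 3 or more bins out of 59360 genes in the table.

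Bin counts of 18 poly(A)-selected RNA-seq libraries of human cell lines were used, in 6 groups of 3 separate cultures. Wild-type K562 cells, a chronic myeloid leukaemia line, and wild-type HCT116 cells, a colorectal carcinoma line, received DNMT1i, a selective inhibitor of the maintenance DNA methyltransferase, at 10 µM for 3 days, or 0.1% DMSO for 3 days. K562 speckle dTAG cells, a single-cell clone in which SON and SRRM2, the scaffold proteins of nuclear speckles, both carry a degron tag that dTAG-13 directs to degradation, were given dTAG-13 at a concentration of 500 nM, or DMSO at 0.1%, and were collected after 6 hr. Both speckle groups carry both tags, and the SRRM2 tag replaces the last residues of that protein. The inhibitor acts on an enzyme and the degrader on proteins, so the RNA of DNMT1, SON or SRRM2 does not check the labels. In gene counts, markers were compared over all 18 libraries, with the speckle dTAG cells counted as K562. Of 12 K562 markers, 10 were higher in every K562 library than in any HCT116 library (the exceptions were EPOR and HBE1). Of 12 HCT116 markers, 9 were higher in every HCT116 library than in any K562 library (not CEACAM5, VIL1 and LGALS4).

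The 3′ end of an mRNA is made when cleavage and polyadenylation factors recognise a poly(A) signal, most often the hexamer AATAAA or ATTAAA, cut the RNA shortly downstream and add the poly(A) tail. Many genes hold several such sites. Use of a proximal site leaves the most distal exon sequence out of the mRNA and can shorten the 3′ untranslated region (3′ UTR) or, where it lies in an intron, the protein. Nuclear speckles hold splicing and RNA processing factors, and DNA methylation has been linked to the choice of intragenic poly(A) sites through CTCF, a DNA-binding protein.

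The members differed widely in size. Their median width was 236 bases, with quartiles of 17 and 882 bases, against 93 bases for interior bins and 76 bases for 5′-most bins. Of the members, 1720 were 1 base wide and 8701 (29.8%) were under 50 bases. These narrow bins arise where transcripts of 1 gene end a few bases apart, and 17046 members (58.4%) abut another bin of the gene upstream without a gap. A member and the bins that abut it upstream are called the terminal block here, and it had a median of 2 bins and 871 bases. By gene type, 17824 members belonged to protein-coding genes and 8707 to lncRNA genes, after a match of 29133 members (99.8%) to GENCODE 44 by gene identifier.

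Poly(A) signals marked these bins. Within the last 50 bases, AATAAA or ATTAAA on the gene's strand was present in 53.9% of members of 50 bases or more, against 7.88% of interior bins and 1.95% of 5′-most bins of that width. The percentage was 67.4% in protein-coding and 42.9% in lncRNA genes, and 82.0% of members under 50 bases in a terminal block of at least 50 bases had a hexamer in this window. The median distance from the hexamer to the end of the bin was 17 bases. The median GC content of the window was 34% in members, 56% in 5′-most bins and 48% in interior bins. Flattening leaves out stretches shared with other genes, so a bin can end before the transcript does. The SON member, for example, ends right after its hexamer.

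Among 65 members described here, 53 had one of the hexamers in the window and 12 had neither. The following 30 bases around the hexamer (capitals) are shown for some of the members named below. They are from hg38 on the strand of the gene, 5′ to 3′.
PCDH7, chr4:31146762-31146791 (+): ttgtctctgcaaATTAAAatataacatggt
PARP16, chr15:65234472-65234501 (−): aaacaccgaatgAATAAAtgtggataggtc
H2BC5, chr6:26171313-26171342 (+): aaagttataattAATAAAatctgcggagaa
H2BC4, chr6:26114878-26114907 (−): cataaagacaaaATTAAAataactcctagt
QSOX1, chr1:180203997-180204026 (+): atccctactgaaAATAAAgggcctaaagac
LCOR, chr10:96995923-96995952 (+): ttatggcagcgtATTAAActtctttgatat
SUGT1, chr13:52700877-52700906 (+): gtatttcagtatAATAAAatctgatgtaag
UNK, chr17:75825769-75825798 (+): aaacctattggaAATAAAatatgaacttgc
The hexamer ended 26 bases before the end of the bin in PCDH7, 24 in PARP16, 19 in H2BC5, 17 in H2BC4, 16 in QSOX1 and LCOR, 15 in SUGT1 and 13 in UNK. The members of PTPRS and SYVN1, described below, held neither hexamer in their last 50 bases. A match is a description of the letters and not evidence of cleavage there.

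The libraries held 31947596 (K562 DMSO replicate 3) to 43773260 (HCT116 DNMT1i replicate 2) bin counts. A read counts in every bin it touches, and there were about 2 bin counts per gene count (1.98 in HCT116 DMSO replicate 1). The 3′-most bins took 3.64% to 5.22% of the bin counts of genes with 3 or more bins. Over 12164 genes with a mean of 50 or more bin counts, the median share of the 3′-most bin was 0.465% (quartiles 0.0529% and 8.18%), 702 members had no count in any library, and 573 (4.71%) took 50% or more of their gene's counts. The share followed width, from a median of 0.0766% in members under 50 bases to 0.200% at 50 to under 200 bases, 1.5% at 200 to under 1000 bases and 16.3% at 1000 bases or more. Members after a gap had a median of 3.18% and those that abut an upstream bin 0.359%, while whole terminal blocks had 24.0% and 5′-most bins 0.150%.

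K562 DMSO replicate 3 stood apart from its group. Its gene counts differed from those of replicates 1 and 2 by a chi-square of 31.4 and 29.7 per degree of freedom, against 2.48 between those 2 and 2.11 to 14.5 in the pairs of other groups. Its 3′-most bins took 3.64% of counts, the lowest of the 18 libraries, against 4.41% and 4.69% in its group. Results that rest on it are given with and without it, here or in the closing section.

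**Figure D1:**
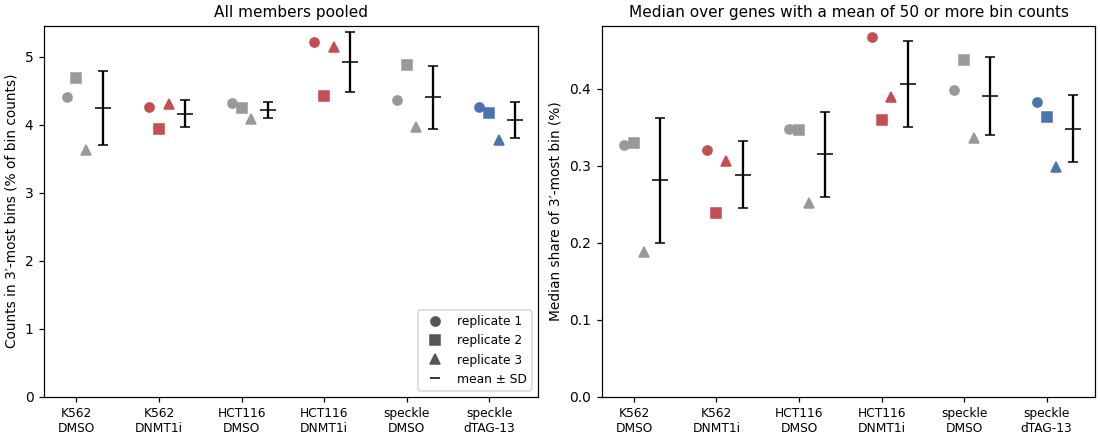
Share of counts in 3′-most bins in each library, with all members pooled as a percentage of the bin counts of genes with 3 or more bins (left) and as the median share over 12164 genes (right). Symbols are replicates and bars are the mean ± SD of 3 libraries. The HCT116 DNMT1i libraries sit at 4.42% to 5.22% pooled, above the HCT116 DMSO libraries at 4.09% to 4.33%, and K562 DMSO replicate 3 is the lowest.

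Whether a treatment moved 3′ end use as a whole was asked with 1 value per library. In HCT116 cells the 3′-most bins took 4.33%, 4.25% and 4.09% of counts in DMSO and 5.22%, 4.42% and 5.15% under DNMT1i. Every DNMT1i library was above every DMSO library. The means were 4.22% ± 0.12 and 4.93% ± 0.44 (SD, n = 3 each), and the two-sided exact permutation test gave p = 0.1, the smallest that 3 against 3 libraries allow. The median share was 0.315% ± 0.055 and 0.406% ± 0.056 (SD, n = 3 each, exact permutation p = 0.1), also without overlap of the groups. Over genes with a mean of 500 or more bin counts it was 0.254% ± 0.040 and 0.296% ± 0.055, and the mean share was 8.37% ± 0.21 and 8.63% ± 0.44 (exact permutation p = 0.4 for both, n = 3 each). By width, the pooled share of members of 200 to under 1000 bases was 0.721% ± 0.019 in DMSO and 0.908% ± 0.041 under DNMT1i (exact permutation p = 0.1, n = 3 each), and that of members of 50 to under 200 bases 0.122% ± 0.0072 and 0.144% ± 0.0097 (exact permutation p = 0.1, n = 3 each). Members of 1000 bases or more, which hold most of the counts, took 3.30% ± 0.077 and 3.79% ± 0.38, and those under 50 bases 0.0796% ± 0.019 and 0.0932% ± 0.018 (exact permutation p = 0.2 and 0.6, n = 3 each). The median share of whole terminal blocks was 22.8% ± 0.33 and 24.1% ± 1.4, with groups that overlap (exact permutation p = 0.4, n = 3 each).

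In K562 cells the median share was 0.281% ± 0.081 in DMSO and 0.288% ± 0.044 under DNMT1i (SD, n = 3 each, exact permutation p = 1). Without K562 DMSO replicate 3 the DMSO mean was 0.328% and the difference, DNMT1i minus DMSO, was −0.0399 percentage points (exact permutation p = 0.2, n = 2 and 3). In speckle dTAG cells it was 0.390% ± 0.051 in DMSO and 0.348% ± 0.044 after dTAG-13 (exact permutation p = 0.4, n = 3 each). No difference between these groups could be told from the spread between libraries.

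Each member was then compared with the rest of its gene. The edgeR exon usage test gives the log2 change of a bin relative to its gene, so that a change of the whole gene cancels, and a bin was called at a Benjamini-Hochberg adjusted p below 0.05 over all bins tested. Because the gene's value includes the bin, the log2 change understates the change of a bin that makes much of its gene. Only bins with enough counts could be tested, 4404 to 4939 members in the comparisons of a treatment or of the lines.

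In HCT116 cells, DNMT1i moved 164 of 4939 members tested, 92 higher and 72 lower. The split depended on the test, as DESeq2 called 19 higher and 54 lower and the test of whole terminal blocks 81 higher and 22 lower. Leaving out 1 library gave 75 to 302 calls, the latter (240 higher and 62 lower) without HCT116 DNMT1i replicate 2. Counted over all bins, DESeq2 called 362 higher and 305 lower and the test of terminal blocks 612 and 373. Without HCT116 DNMT1i replicate 2 there were 2403 higher and 681 lower of all bins. Of the 164, limma also called 159, DESeq2 64 and the test of whole terminal blocks 41. The 164 are 3.32% of the members, where 0.86% of all 201926 bins tested were called (0.605% higher and 0.255% lower). Of the 2621 5′-most bins tested, 23 were called higher and 14 lower. Members and other bins differ in width and counts, and the part of this in the percentages was not tested. Over 4939 members the median log2 change was 0.06. The median log2 change was 0.88 in the members called higher and −0.81 in those called lower. The shares of the 3 DNMT1i libraries lay wholly above those of DMSO in 66 of the 92, and wholly below in all 72 called lower. In 35 called members the mean share moved by 5 percentage points or more, up in 15 and down in 20.

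By edgeR, the members called higher were narrower than those called lower, with a median width of 408 against 2947.5 bases. Below 200 bases, 31 members were called and all were higher, which were 15 of 467 tested under 50 bases and 16 of 292 at 50 to under 200 bases. At 200 to under 1000 bases 35 of 1321 were higher and 4 lower, whereas at 1000 bases or more 26 of 2859 were higher and 68 lower. Gene-level change did not go with 1 direction: of the 92 members called higher, 32 belonged to genes called higher and 32 to genes called lower at the gene level, and of the 72 called lower 16 and 21. Of the 4000 members tested with a hexamer in the last 50 bases, 3.55% were called (80 higher and 62 lower), and of the 939 without one 2.34% (12 higher and 10 lower).

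**Figure D2:**
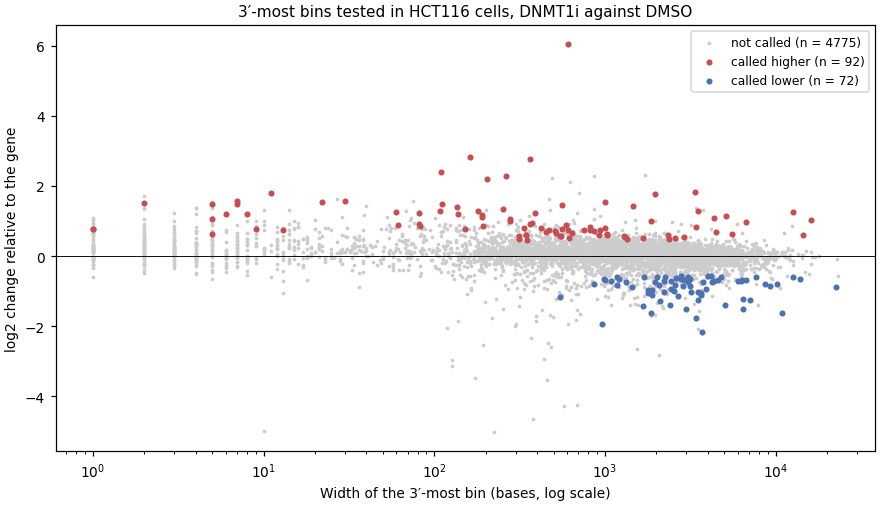
Log2 change relative to the gene (DNMT1i against DMSO, HCT116 cells, y axis) against the width of the 3′-most bin in bases (x axis, log scale) for 4939 members. Red points are the 92 called higher and blue points the 72 called lower. Calls below 200 bases are all above 0, and most of the calls below 0 are at 1000 bases or more.

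Among called members of genes with a mean of 200 or more bin counts in each group and no overlap of the groups, the largest fall in mean share was in PCDH7, which encodes a protocadherin, a cell adhesion protein. Its member, 3680 bases of 3′ UTR on chromosome 4, took 69.3%, 70.7% and 68.3% of the gene's counts in DMSO and 36.9%, 28.7% and 35.0% under DNMT1i. All DNMT1i libraries were far below all DMSO libraries, with a log2 change of −1.05 ± 0.12 (SE) relative to the gene and an edgeR adjusted p of 8.3e-10. The bin of the same gene that moved most the other way was an interior bin of 961 bases that lies 418685 bases upstream, and it rose from 0.362% ± 0.10 to 18.3% ± 1.1 (SD, n = 3 each). The gene as a whole changed little (log2 −0.26, adjusted p = 0.010). K562 libraries held almost no PCDH7 counts.

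The largest rises by the same measure were in genes of different roles. H2BC5 encodes a histone H2B, a gene class whose main mRNAs end at a stem-loop without a poly(A) tail, and its member is a 375-base last exon that lies 12415 bases after the gene's 5′-most bin. It took 25.8%, 20.1% and 20.6% in HCT116 DMSO and 43.6%, 40.7% and 42.6% under DNMT1i. Every DNMT1i library was above every DMSO library (log2 0.94 ± 0.16, edgeR adjusted p = 3.3e-04), the 5′-most bin went from 68.6% to 55.1%, and the gene rose as a whole (log2 1.35). In K562 cells the share was 34.9% ± 3.8 in DMSO and 35.2% ± 0.86 under DNMT1i.

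PARP16 encodes a mono-ADP-ribosyltransferase of the endoplasmic reticulum. Its member, 364 bases on chromosome 15, lies only in a transcript annotated for nonsense-mediated decay. It took 3.23%, 3.21% and 3.31% in DMSO and 23.2%, 22.1% and 22.1% under DNMT1i, with no overlap (log2 2.77 ± 0.24, edgeR adjusted p = 5.0e-15). The 5′-most bin of the gene went from 0.119% to 11.9% at the same time, so that both ends took a larger share. In the 6 wild-type K562 libraries the member's share was 0.420% or less.

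**Figure D3:**
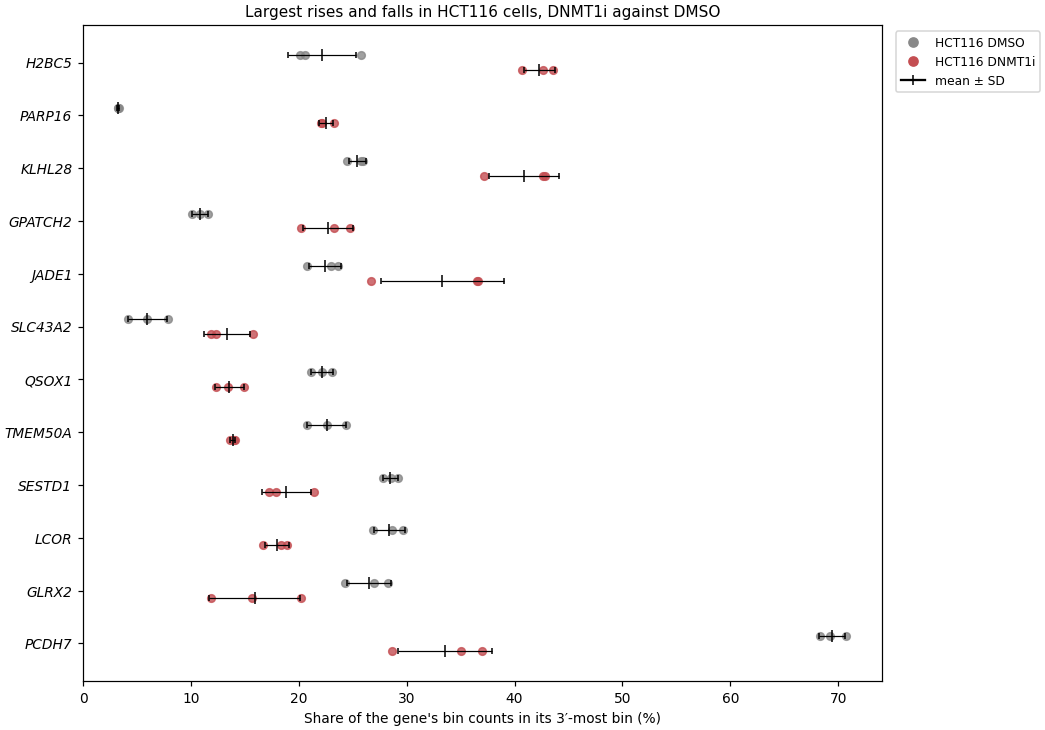
Share of the gene's bin counts in its 3′-most bin (x axis, %) for the 6 members with the largest rises and the 6 with the largest falls in mean share in HCT116 cells, among called members of genes with 200 or more mean bin counts in each group and no overlap. Grey points are the 3 DMSO libraries, red points the 3 DNMT1i libraries, and black bars the mean ± SD. PCDH7 shows the widest move, from 69.4% to 33.5%.

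Of the other large rises, KLHL28, a kelch-like protein, went from 25.4% ± 0.78 to 40.9% ± 3.2 and GPATCH2, a G-patch protein, from 10.8% ± 0.73 to 22.7% ± 2.3 (SD, n = 3 each, edgeR adjusted p = 0.0012 and 1.8e-05). JADE1, a subunit of a histone acetyltransferase complex, went from 22.5% ± 1.5 to 33.3% ± 5.7 and SLC43A2, an amino acid transporter, from 5.98% ± 1.9 to 13.3% ± 2.1 (adjusted p = 0.014 and 0.0014). Members of GPATCH2, PARP16, H2BC5, PCDH7 and KLHL28 were called in all 13 alternative fits, whereas JADE1 was called in 7, without HCT116 DNMT1i replicate 2 among them, the library with the lowest JADE1 share of its group (26.7% against 36.5% and 36.6%).

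The other large falls had wide members. LCOR, a nuclear receptor corepressor, has a 13915-base member that also holds coding sequence (22.2% of its bases). It took 28.7%, 26.9% and 29.7% in DMSO and 16.7%, 18.4% and 18.9% under DNMT1i, without overlap (log2 −0.66 ± 0.15, edgeR adjusted p = 0.0049). A 5515-base interior bin 17600 bases upstream rose from 22.9% ± 0.68 to 31.3% ± 1.6 (SD, n = 3 each). QSOX1, a sulfhydryl oxidase of the secretory pathway, fell from 22.1% ± 1.0 to 13.6% ± 1.3, TMEM50A, a membrane protein, from 22.6% ± 1.8 to 13.9% ± 0.24, SESTD1 from 28.5% ± 0.68 to 18.8% ± 2.3, and GLRX2, a mitochondrial glutaredoxin, from 26.5% ± 2.0 to 15.9% ± 4.2 (adjusted p = 8.9e-04, 0.0019, 0.0092 and 0.0070). The GLRX2 member lies only in a transcript annotated for nonsense-mediated decay, and DESeq2 did not call it. LCOR, TMEM50A, SESTD1 and GLRX2 each lost the call when some single libraries were left out, HCT116 DMSO replicate 1 among them in all 4. Tested as a whole terminal block, QSOX1, TMEM50A and SESTD1 were not called, nor was SLC43A2 among the rises.

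In K562 cells DNMT1i moved 3 of 4404 members tested, 1 higher and 2 lower, which is 0.0681% where 0.0492% of all bins tested were called (0.0337% higher and 0.0155% lower). At an unadjusted p below 0.05 there were 100 such members, beside 3391 of all 186972 bins tested. Without K562 DMSO replicate 3 there were 10 calls, 1 higher and 9 lower, which include the 3. Of all 195834 bins tested in that fit, 88 were called higher and 67 lower.

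The rise in K562 cells was PTPRS, a receptor-type protein tyrosine phosphatase. Its 610-base member on chromosome 19 lies in a transcript with no defined coding sequence, after a gap. It took 0.139%, 0.502% and 0.151% of counts in DMSO and 3.51%, 4.43% and 4.80% under DNMT1i, without overlap (log2 4.0 ± 0.57, edgeR adjusted p = 4.8e-07). The bin held 1, 3 and 1 counts in the DMSO libraries and 22 in each DNMT1i library, so the size of the change is uncertain. In HCT116 cells, a comparison that shares no library with this one, the same member went from 0.0679%, 0.123% and 0.0274% to 5.66%, 4.19% and 5.16% (log2 6.05). It was the only 1 of 3741 members tested in both lines that was called in both, of 2 called in K562 and 140 in HCT116 cells among them. In speckle dTAG cells it was at 0.393% or less in all 6 libraries.

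The falls in K562 cells were EP400P1 and DLK1. EP400P1, a pseudogene of the chromatin remodeller gene EP400, took 25.8%, 20.3% and 17.7% in DMSO and 10.4%, 8.26% and 9.32% under DNMT1i (log2 −1.13 ± 0.20, edgeR adjusted p = 6.8e-04). All DNMT1i libraries were below all DMSO libraries. Reads of a pseudogene can also match its parent gene, and no GENCODE 44 exon covers this bin, so these counts are uncertain. DLK1, an imprinted gene for a Notch ligand-like protein, went from 1.16%, 1.14% and 0.784% to 0.525%, 0.450% and 0.490% (log2 −1.06 ± 0.19, adjusted p = 8.6e-04), also without overlap. EP400P1 lost the call without K562 DNMT1i replicate 2 or 3 or DMSO replicate 1, and DLK1 without DMSO replicate 1, in the terminal block, with a replicate block and in the share test (adjusted p = 0.076).

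**Figure D4:**
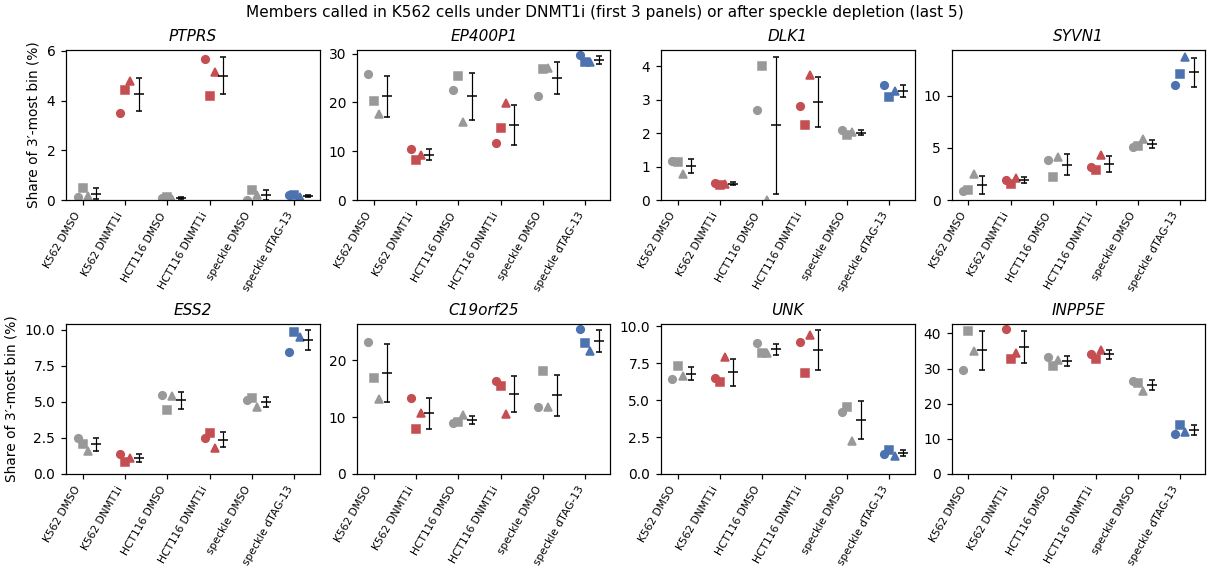
Share of the gene's bin counts in its 3′-most bin (y axis, %) in all 18 libraries for the 3 members called in K562 cells under DNMT1i (PTPRS, EP400P1 and DLK1) and 5 called after speckle depletion (SYVN1, ESS2, C19orf25, UNK and INPP5E). Symbols are the 3 replicates, grey for DMSO, red for DNMT1i and blue for dTAG-13, and bars are the mean ± SD. PTPRS rises under DNMT1i in both lines, and SYVN1 is highest in the 3 dTAG-13 libraries, at 11% to 13.8%.

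A response that passes the threshold in 1 line and not in the other is not thereby different, so the difference itself was tested over the 12 wild-type libraries, as the log2 response of HCT116 cells minus that of K562 cells. Of 5643 members tested, 10 were called (5 higher and 5 lower), which is 0.177% where 0.0645% of all bins tested were called (0.0374% higher and 0.0271% lower). All 10 were also called in HCT116 cells, in the same libraries and in the same direction, and none of them in K562 cells.

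The response of H2BC4, another histone H2B gene, had the lowest p of the 10. Its 263-base member took 10.6%, 3.00% and 6.31% in HCT116 DMSO and 31.4%, 31.7% and 32.6% under DNMT1i, but 34.7%, 36.0% and 28.7% in K562 DMSO and 35.1%, 35.0% and 35.8% under DNMT1i. The HCT116 DMSO libraries thus stood alone at the low end, and the difference of responses was 2.20 ± 0.33 (log2, SE, edgeR adjusted p = 4.8e-05), called in all 17 alternative fits. The HCT116 gene total behind these shares was a mean of 98.7 counts in DMSO and 220.3 under DNMT1i.

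SUGT1, a co-chaperone of kinetochore assembly, went the other way. Its 10964-base member took 9.45%, 8.20% and 8.83% in HCT116 DMSO and 2.85%, 2.74% and 3.01% under DNMT1i, below every DMSO library. In K562 cells it took 5.11%, 5.90% and 4.03% in DMSO and 3.97%, 3.86% and 4.72% under DNMT1i, with overlap. The difference was −1.35 ± 0.24 (edgeR adjusted p = 2.3e-04). TMED3, a cargo receptor of the early secretory pathway, rose from 6.16% ± 0.90 to 12.4% ± 1.6 in HCT116 cells and was at 10.1% ± 1.5 and 7.92% ± 0.89 in K562 cells (difference 1.35 ± 0.24, adjusted p = 0.0028). UBE3A, a ubiquitin ligase gene (1.51% ± 0.16 to 0.640% ± 0.098 in HCT116, 0.970% ± 0.15 to 1.20% ± 0.21 in K562), and CENPC, a centromere protein gene (4.48% ± 1.2 to 0.982% ± 0.27 in HCT116, 3.39% ± 0.77 to 3.60% ± 0.51 in K562), had differences of −1.52 and −2.18 (adjusted p = 0.0064 each). TMED3 and UBE3A lost the call without HCT116 DNMT1i replicate 3, UBE3A also without K562 DNMT1i replicate 3, and CENPC without HCT116 DNMT1i replicate 1 or DMSO replicate 3. Tested as a whole terminal block, SUGT1, UBE3A and CENPC were not called for this difference.

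SRSF4, a splicing factor, had a difference of 2.16 ± 0.40 (edgeR adjusted p = 7.6e-04), but its 110-base member varied strongly within groups. It took 1.71%, 1.76% and 0.379% in K562 DMSO, 1.82%, 0.900% and 1.66% in K562 DNMT1i, 0.246%, 0.522% and 0.0802% in HCT116 DMSO, and 2.04%, 0.842% and 1.81% in HCT116 DNMT1i. The low libraries of each group were K562 DMSO replicate 3, K562 DNMT1i replicate 2, HCT116 DMSO replicate 3 and HCT116 DNMT1i replicate 2. The share test, which takes the spread from the bin itself, gave an adjusted p of 0.82 for this difference. The edgeR call was lost without HCT116 DMSO replicate 3 and in the terminal block. The 7-base member of HSPA8, a heat shock chaperone, was also lowest in replicate 3 of each DMSO group, at 0.259%, 0.279% and 0.00840% in K562 DMSO and 0.0558%, 0.178% and 0.0227% in HCT116 DMSO. Such bins lie at the very end of the transcript, and the part of library differences in the calls of narrow members was not tested.

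In speckle dTAG cells dTAG-13 moved 6 of 4625 members tested, 3 higher and 3 lower. That is 0.130%, where 0.131% of all bins tested were called (0.095% higher and 0.0358% lower), and 396 of the members had an unadjusted p below 0.05, beside 6744 of all 184300 bins tested. Over the 4625 members the median log2 change was −0.12. With replicate number as a block in the fit, 15 members were called higher and 88 lower. Over all 184300 bins tested, that fit called 650 higher and 685 lower.

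SYVN1, an E3 ubiquitin ligase of the endoplasmic reticulum, rose. Its 268-base member on chromosome 11 belongs to a transcript annotated as intron-retaining. It took 5.13%, 5.18% and 5.88% in DMSO and 11%, 12.1% and 13.8% after dTAG-13, without overlap (log2 1.20 ± 0.13, edgeR adjusted p = 2.6e-08). The gene total fell meanwhile (log2 −0.94). In the wild-type libraries the share lay between 0.901% and 4.29%. The call held in all 13 alternative fits.

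ESS2, a nuclear protein found with spliceosomes, rose from 5.14%, 5.26% and 4.63% to 8.48%, 9.82% and 9.47%, and C19orf25 from 11.8%, 18% and 11.7% to 25.5%, 23.0% and 21.7% (log2 0.90 ± 0.18 and 0.84 ± 0.19, edgeR adjusted p = 0.0052 and 0.027). In both, every dTAG-13 library was above every DMSO library. ESS2 lost the call without dTAG-13 replicate 2 or DMSO replicate 1 and in the terminal block. C19orf25 lost the call without any 1 of the 3 dTAG-13 libraries and without DMSO replicates 1 or 3. UNK, a zinc finger RNA-binding protein, fell from 4.18%, 4.56% and 2.22% to 1.33%, 1.62% and 1.22% (log2 −1.44 ± 0.29, adjusted p = 0.0048), without overlap, and it was called in 1 of the 6 fits without a single library. C19orf25 and UNK were not called by DESeq2 or by the share test (share test adjusted p = 0.072 and 0.17).

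The other members called lower were INPP5E and HSPA8, named although they are outside the naming rule. INPP5E, an inositol phosphatase gene of the primary cilium with a mean of under 200 counts in the DMSO group, went from 26.6%, 25.8% and 23.6% to 11.5%, 14.1% and 12%, with no overlap. The HSPA8 member was at 0.344%, 0.373% and 0.236% in DMSO and 0.285%, 0.210% and 0.148% after dTAG-13, where the groups overlap.

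The lines were compared in DMSO alone. Between HCT116 and K562 cells in DMSO, 387 of 4843 members tested were called, 293 higher in HCT116 and 94 lower. That is 7.99%, where 2.6% of all bins tested were called (1.19% higher and 1.41% lower). Line and culture cannot be told apart in this comparison, and it shares the DMSO libraries with both DNMT1i comparisons, so that values are given side by side only. The members higher in HCT116 had a median width of 2582 bases and those lower 664.5 bases, and at 1000 bases or more 254 of 2802 were higher and 42 lower. In 131 called members the share differed by 5 percentage points or more, 107 of them higher in HCT116. Without K562 DMSO replicate 3 there were 759 calls, 351 higher and 408 lower, of which 369 were among the 387. Of all 213775 bins tested in that fit, 4312 were called higher and 6771 lower. On whole terminal blocks there were 283 calls, of which 132 were among the 387, beside 2060 higher and 2502 lower over all bins and blocks tested.

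QSOX1 showed the lines far apart. Its 5996-base member took 0.859%, 0.462% and 1.1% in K562 DMSO and 23.1%, 22.2% and 21.1% in HCT116 DMSO, with no library near the other line (log2 4.75 ± 0.24, edgeR adjusted p = 3.1e-31). The other 4 groups stood at 13.6% ± 1.3 in HCT116 DNMT1i and at 0.660% to 1.05% in the K562-derived groups. The bins that abut it upstream took 25.9% in HCT116 DMSO and 28.0% in K562 DMSO.

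Other members were also higher in HCT116. MCM8, a DNA repair helicase gene, was at 18.4% ± 1.2 and 43.3% ± 1.6, and SAP30L, a corepressor subunit gene, at 11.1% ± 2.7 and 33.3% ± 1.7 (K562 and HCT116, SD, n = 3 each, edgeR adjusted p = 1.3e-04 and 1.2e-08). IKBIP was at 15.5% ± 0.51 and 34.7% ± 2.0, while a 2518-base interior bin of it was at 71.8% and 51.1% (adjusted p = 3.6e-06 for the member). PTMAP5, a prothymosin alpha pseudogene whose reads may come from its parent gene, was at 11.8% ± 1.1 and 45.9% ± 2.4. Tested as a whole terminal block, MCM8 and SAP30L were not called.

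**Figure D5:**
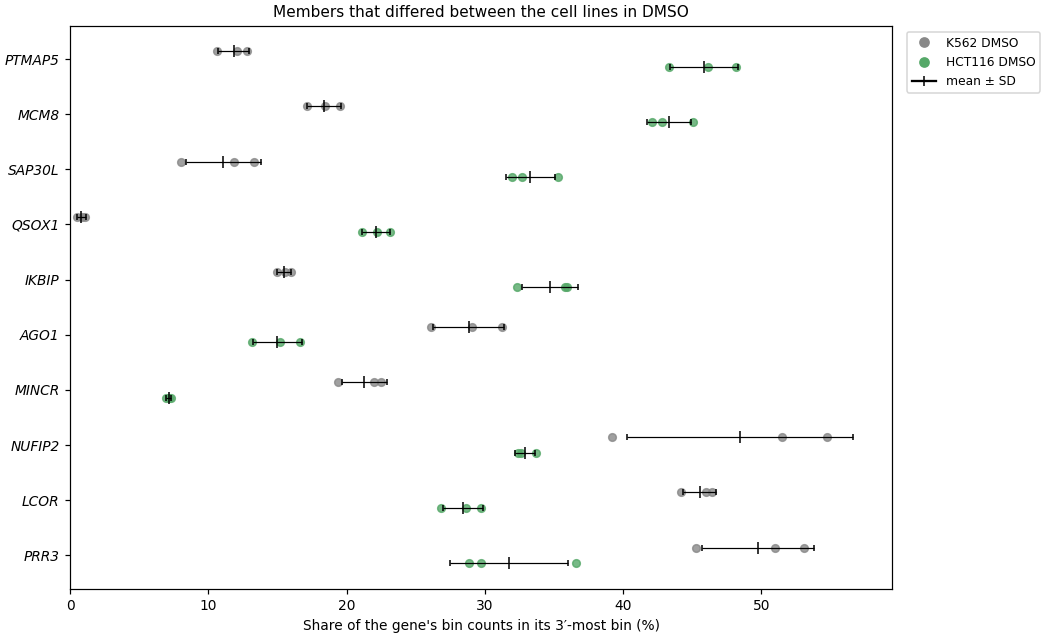
Share of the gene's bin counts in its 3′-most bin (x axis, %) for 5 members in each direction that differed between the lines in DMSO, from those chosen by the same rule. Grey points are the 3 K562 DMSO libraries, green points the 3 HCT116 DMSO libraries, and black bars the mean ± SD. By that rule the lines do not overlap, and QSOX1 is at 0.806% in K562 and 22.1% in HCT116.

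Lower in HCT116 was AGO1, an Argonaute of small-RNA silencing, at 28.8% ± 2.6 in K562 and 15.0% ± 1.8 in HCT116 (SD, n = 3 each, edgeR adjusted p = 5.3e-06). LCOR was at 45.5% ± 1.2 and 28.4% ± 1.4, NUFIP2, an RNA-binding protein gene, at 48.5% ± 8.2 and 32.9% ± 0.71, PRR3 at 49.8% ± 4.0 and 31.7% ± 4.3, and MINCR, a lncRNA gene, at 21.3% ± 1.7 and 7.12% ± 0.18. NUFIP2 and PRR3 were each called in 1 of the 6 fits without a single library, that without K562 DMSO replicate 3. LCOR lost the call without K562 DMSO replicate 2 or HCT116 DMSO replicate 1 or 2. Tested as a whole terminal block, AGO1 and NUFIP2 were not called.

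Members of genes with roles in RNA ends and in methylation were counted by lists, beside the 3.32% of all members and 0.86% of all bins tested that were called in HCT116 cells under DNMT1i. There, 1 of 8 cleavage and polyadenylation factors tested was called: WDR33, the subunit that binds the poly(A) signal, whose member rose from 6.05% ± 0.14 to 9.32% ± 0.43 (SD, n = 3 each, edgeR adjusted p = 0.0054), a call lost without replicate 1 of either group. Of 10 termination and mRNA export factors, 0 were called by edgeR, DESeq2 or limma, with 1 at an unadjusted p below 0.05. Of 22 speckle and splicing factors, 2 were higher (SRSF4 and PRPF8) and 2 lower (LUC7L3, from 1.47% ± 0.17 to 0.708% ± 0.086, and SRSF1). The PRPF8 member is 2 bases wide and its groups overlap. Tested as a whole terminal block, SRSF4, PRPF8 and LUC7L3 were not called, and DESeq2 did not call SRSF4 or PRPF8. Median log2 changes of these lists were 0.04, 0.04 and 0.09, beside 0.06 over all members tested.

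Among 26 genes known for alternative polyadenylation, CD44, an adhesion receptor, was higher (5.74% ± 0.20 to 7.98% ± 0.97) and SMAD2, a transcription factor of TGF-beta signalling, lower (1.59% ± 0.13 to 0.862% ± 0.11; SD, n = 3 each, edgeR adjusted p = 0.015 and 0.0018). CD44 lost the call without HCT116 DNMT1i replicate 1 or 3 or DMSO replicate 1 or 3, and SMAD2 without DNMT1i replicate 1. Tested as a whole terminal block, CD44 and SMAD2 were not called, and DESeq2 did not call CD44. Of 55 cytosolic ribosomal protein genes 5 were higher and 1, RPL37, lower (1.68% ± 0.039 to 0.875% ± 0.12) by edgeR, while DESeq2 called 1 of the 55 and limma 5. The 13-base RPL7A member called higher overlapped between groups, as HCT116 DMSO was at 2.0%, 2.34% and 0.822% and DNMT1i at 3.62%, 2.03% and 2.79%. RPL34 went from 0.50% ± 0.29 to 1.21% ± 0.40, a call lost without replicate 1 of either group. DESeq2 did not call RPL34 or RPL7A, and in the terminal block RPL37 and RPL7A were not called. The median log2 change of the ribosomal protein members was 0.22, beside 0.06 over all members tested. It was also 0.22 over all members under 50 bases and 0.04 over those of 1000 bases or more. The part of width in the value of this list was not tested. As whole genes, 78 of 79 ribosomal protein genes were lower under DNMT1i, where 27.9% of all genes were called lower. Of 17 DNA methylation, CTCF and cohesin genes 0 were called by edgeR or DESeq2 and 2 by limma (3 at an unadjusted edgeR p below 0.05). Of 3 snoRNA host genes 0 were called by edgeR, DESeq2 or limma, with 0 at an unadjusted p below 0.05. The same held for 3 K562 markers, and of 6 HCT116 markers 0 were called by any of these tools, with 2 at an unadjusted edgeR p below 0.05.

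In K562 cells under DNMT1i, 0 of the 149 listed members tested were called by edgeR, DESeq2 or limma, with 6 at an unadjusted edgeR p below 0.05. After speckle depletion, 0 of 160 were called by edgeR or DESeq2 and 2 by limma, with 23 at an unadjusted edgeR p below 0.05. There the median log2 change was −0.32 over the 23 speckle and splicing factors and −0.16 over the 58 ribosomal protein genes, beside −0.12 over all members tested. It was −0.20 over all members under 50 bases and −0.10 over those of 1000 bases or more. Between the lines 16 of 155 were called by edgeR, where 7.99% of all members and 2.6% of all bins tested were called. They include MBD3, a subunit of the NuRD repressor complex, at 1.93% ± 0.50 in K562 and 6.36% ± 1.1 in HCT116, EIF2S1, a translation initiation factor gene, at 7.98% ± 1.1 and 15.4% ± 0.50, RUNX1, a haematopoietic transcription factor gene, at 18.8% ± 5.2 and 33.9% ± 2.7, and SNHG3, a snoRNA host gene, at 1.55% ± 0.73 and 6.69% ± 1.4 (SD, n = 3 each). CSTF1 and CSTF2, subunits of the cleavage stimulation factor, went in opposite directions, from 5.59% ± 0.61 to 3.34% ± 0.15 and from 2.68% ± 0.78 to 4.97% ± 0.77. CSTF1 was called in 1 and CSTF2 in 3 of the 6 fits without a single library. In the terminal block, MBD3, EIF2S1, RUNX1, CSTF1 and CSTF2 were not called between the lines, whereas SNHG3 was.

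A share test, in which the other tested bins of the gene serve as the offset and the spread comes from the bin itself, was added after seeing the data. In HCT116 cells under DNMT1i it called 128 members higher and 124 lower, where 0.914% of all bins were called. In K562 cells it called 1 higher and 1 lower, where 0.03% of all bins were called, and after speckle depletion 3 higher and 1 lower, where 0.0591% were called. Between the lines it called 378 higher and 112 lower, where 2.89% of all bins were called, and for the difference of responses 6 higher and 11 lower, where 0.0463% were called. The log2 change of PCDH7, whose member makes much of its gene, was −2.17 in HCT116 cells on this scale.

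The members of the study's own target genes gave little to compare. The SON member was at 3.62% ± 0.42 in speckle DMSO and 3.07% ± 0.40 after dTAG-13, with overlap, and was not called in any comparison (log2 −0.24, edgeR adjusted p = 1 after dTAG-13). The 3′-most bins of SRRM2 (217 bases), DNMT1 (3 bases) and CTCF (1 base) held too few counts to be tested.

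The RNA of the 3′ end machinery was compared at the gene level, over 50 genes for cleavage and polyadenylation or termination and export. In HCT116 cells under DNMT1i 9 were higher and 19 lower, where 61.6% of all genes were called (33.8% higher and 27.9% lower). PCF11, a termination factor, fell from 89.3 ± 5.8 to 53.0 ± 2.1 CPM (counts scaled to library size, edgeR TMM), SSU72, a phosphatase of the RNA polymerase II tail, from 147.6 ± 12.5 to 87.1 ± 4.5 CPM, and PABPC1, the cytoplasmic poly(A)-binding protein gene, from 5349 ± 253 to 3233 ± 81 CPM. RBBP6, a cleavage factor subunit gene, rose from 138.6 ± 15 to 210.2 ± 11 CPM (SD, n = 3 each, edgeR adjusted p at or below 1.6e-06 in these 4). In K562 cells 1 of the 50 was called, PABPC4, lower (471 ± 31 to 396 ± 2.5 CPM), where 8.84% of all genes were called (6.47% higher and 2.38% lower). After speckle depletion CSTF3 and PCF11 were higher and CPSF4, RBBP6 and NELFA lower, 5 of 50, where 4.67% of all genes were called (1.57% higher and 3.09% lower). NELFA, a subunit of the negative elongation factor, fell most, from 37.5 ± 3.6 to 22.8 ± 2.2 CPM (log2 −0.74 ± 0.10, adjusted p = 0.0037).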

How the data were processed

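Poly(A)-selected RNA of 18 cultures was made into libraries with unique molecular identifiers. According to the paper's methods and the notes in the labels, the authors used UMI-tools 1.1.1, cutadapt 2.7, STAR 2.6.0 (hg38), HTSeq, and DESeq2 1.28 in R 4.0.2, and the deposited files hold raw read counts per DEXSeq bin and per gene. Whether strand was used in counting is not stated in these sources. A read counts in each bin it touches, and the depths above limit the precision. The authors' own fold changes and p-values, 18 columns of per-sample values, and the libraries without bin counts were not used here.

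Bins were tested with edgeR 4.0.16 (filterByExpr, TMM, glmQLFit, diffSpliceDGE exon F test, Benjamini-Hochberg over all bins tested) in R 4.3.3, and genes with edgeR glmQLFTest. limma 3.58.1 and DESeq2 1.42.0 were alternatives, as was a test of the bin against the gene's other bins as offset (the share test), chosen after seeing the data. On simulated HCT116 counts edgeR recovered 37% of 2-fold and 86% of 4-fold changes, limma 58% and 94%, and the share test 62% and 93%. In genes left unchanged edgeR called 8 bins, limma 9 and the share test 17, of which 0, 0 and 3 were 3′-most bins. DESeq2 was not run on the simulated counts. The simulation gave every bin the same dispersion and libraries that differed in depth only, so recovery in the real counts can differ. Replicate numbers were not used as pairs in the main fits.

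Named members were, among called members of genes with a symbol, a mean of 200 or more bin counts in each group and shares that did not overlap between groups, the 6 largest rises and 6 largest falls in mean share (for the difference between lines, the 6 lowest p-values, taken without the minimum of counts and the overlap criterion; H2BC4 is below that minimum in HCT116 DMSO). Also named, with overlap of the groups allowed, were up to 3 called members per list, and SON, SRRM2, DNMT1 and CTCF. PTPRS in HCT116, INPP5E, HSPA8, SRSF1 and, for the difference between lines, UBE3C, DBNL, EIF3H and TMEM135 were named after their values were seen. The members and lists were chosen with earlier results of these data known. Some members that met the rule are not reported here.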

Additional observations from a re-analysis of the deposited data

Results flagged for a closer look

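The 3′-most bins of 10 genes responded differently to DNMT1i in the 2 lines by the edgeR test of the difference, given as the log2 response in HCT116 minus that in K562, relative to the gene. The difference was 2.20 for H2BC4, 2.16 for SRSF4, 2.39 for DBNL, an actin-binding adaptor gene, 1.61 for UBE3C, a ubiquitin ligase gene, and 1.35 for TMED3. It was −2.18 for CENPC, −1.52 for UBE3A, −1.35 for SUGT1, −1.30 for TMEM135 and −1.12 for EIF3H, a translation initiation factor gene. The edgeR adjusted p lay between 4.85e-05 (H2BC4) and 0.0198 (TMEM135). By the share test, the adjusted p was 0.823 for SRSF4, 0.72 for UBE3C and 0.151 for EIF3H, and below 0.05 for the other 7. Tested as whole terminal blocks, 3 of the 10 kept the edgeR call.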

How the results depend on the processing

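Counts of called members moved with the test and with single libraries. In HCT116 cells under DNMT1i, DESeq2 called 73 (19 higher and 54 lower), limma 284 (169 and 115), the share test, chosen after seeing the data, 252 (128 and 124), and the edgeR test on whole terminal blocks 103 (81 and 22), against 164. Over all bins, DESeq2 called 362 higher and 305 lower, limma 1640 and 710, the share test 1167 and 679, and the terminal block 612 and 373. Of the 164 themselves, DESeq2 called 64, limma 159, the share test 122 and the terminal block 41. Leaving out 1 library gave 75 to 302, the latter (240 higher and 62 lower, 145 of the 164 among them) without HCT116 DNMT1i replicate 2. That fit called 2403 higher and 681 lower of all 207795 bins tested. In K562 cells limma called 5 and the terminal block 6, against 3, and leaving out 1 library gave 1 to 10. Of all bins, limma called 75 higher and 45 lower there, and the terminal block 73 and 27. After speckle depletion DESeq2 called 3, limma 20 and the terminal block 11, against 6, and leaving out 1 library gave 1 to 18, the latter without DMSO replicate 3. Among all bins, DESeq2 called 122 higher and 30 lower, limma 164 and 87, and the terminal block 135 and 49. The fit without DMSO replicate 3 called 219 higher and 170 lower. Between the lines limma called 733 (506 and 227) and the terminal block 283 (185 and 98), and leaving out 1 library gave 275 to 759. Counts over all bins were 4555 higher and 5099 lower for limma and 2060 and 2502 for the terminal block. They were 4312 and 6771 without K562 DMSO replicate 3. For the difference of responses, no filter gave 19 and the share test 17, against 10, and leaving out 1 library gave 6 to 70, the latter (62 and 8) without K562 DMSO replicate 3. All bins together gave 141 higher and 83 lower without a filter and 53 and 51 in the share test. They gave 556 and 131 without K562 DMSO replicate 3.

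The difference in median share in K562 cells, 0.00695 percentage points, changed sign as a pooled share (−0.0801), in genes of 500 or more counts (−0.00193), in the terminal block (−0.171) and among fits without 1 library (−0.0399 to 0.0318). In HCT116 cells it stayed between 0.0587 and 0.114 and after speckle depletion between −0.0693 and −0.0173 without 1 library. Of the named members, 3 changed sign in the terminal block: LUC7L3 (−0.016) and RPL14 (−0.15) between the lines, and UBE3A (0.15) for the difference of responses. Over all named members, 648 of the values under an alternative kept direction and call and 124 kept direction without the call. Of 50 genes of 3′ processing, K562 calls were 3 by DESeq2, 2 without a filter and 0 to 14 without 1 library, HCT116 calls 24 to 31 and speckle calls 1 to 7.

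Replicate numbers were not used as pairs in the main fits, as no comparison had every same-numbered pair correlated above 0.1. In speckle depletion the correlations over bins were 0.066, 0.322 and 0.584 for replicates 1 to 3, so whether those libraries were paired was not settled. With a replicate block, speckle depletion gave 103 called members (15 higher and 88 lower) and 17 of the 3′ processing genes, K562 gave 2 members and 0 such genes, HCT116 129 members, the lines 472 and the difference 10. All bins with this block gave 650 higher and 685 lower in speckle depletion, 53 and 22 in K562 and 945 and 445 in HCT116. They gave 2925 and 3512 between the lines and 74 and 62 for the difference. The cause of these changes was not tested. No gene identifier joined several genes, so leaving such entries out gave no separate value. With 3 libraries a group, exact tests of 1 value per library cannot go below 0.1.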
